A study of Mus musculus with 12 samples.

Results

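The replication-dependent histone genes make the histones that package newly copied DNA, and 67 of the 56941 genes in the count table belong to them. They were taken as the protein-coding genes of the histone clusters, by symbol: 6 genes for the linker histone H1, 18 for H2A, 18 for H2B, 12 for H3 and 13 for H4. The Hist1 cluster holds 54 of them on chromosome 13, Hist2 holds 10 on chromosome 3, Hist3 holds 2 on chromosome 11, and Hist4 holds 1 on chromosome 6. Of 71 genes that matched the symbols, 3 pseudogenes (Hist1h2aj, Hist1h2al and Hist3h2bb-ps) and H1f0, a linker histone gene outside the clusters, were left out.

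The RNA came from CH12F3-2A, a mouse B cell lymphoma line that can switch its antibody class to IgA in culture. All cells received a pX459 plasmid, which carries Cas9, a guide RNA and puromycin resistance, by Neon electroporation, and were selected in puromycin for 72 h. The guide targeted Nop16, a nucleolar protein gene (sgNop16), or no site (sgCtr), and cells then had CIT for 24 h (anti-CD40L at 1 µg/ml, mouse IL-4 at 20 ng/ml and human TGF-β at 1 ng/ml) or no stimulation (no stim). The 4 groups of 3 libraries each were thus sgNop16 with CIT, sgNop16 no stim, sgCtr with CIT and sgCtr no stim. The labels do not say whether the cells were pools or clones, or whether libraries of a group came from separate cultures, so p-values measure the spread between these libraries.

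Core histones H2A, H2B, H3 and H4 form the nucleosome, and H1 binds the DNA between nucleosomes. In mammals the cluster genes are transcribed mostly in S phase, through NPAT, which cyclin E with CDK2 activates. Their mRNAs mostly have no introns and end in a stem-loop in place of a poly(A) tail. The stem-loop binding protein SLBP and the U7 snRNP direct the cut at that end, and the mRNAs are lost quickly when DNA synthesis stops. Some human cluster genes, HIST1H1C and HIST2H2BE among them, are known to give polyadenylated mRNAs as well.

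The stem-loop is shown because it defines these mRNAs and differs between classes. The lines give the part of 6 annotated mRNAs with 16 bases in capitals where the stem-loop was matched (GENCODE mouse transcripts on GRCm38, 5′ to 3′, T for U).
Hist1h1c: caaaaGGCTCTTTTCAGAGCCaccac
Hist1h2ae: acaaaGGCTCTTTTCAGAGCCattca
Hist1h2bg: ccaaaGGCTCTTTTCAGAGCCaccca
Hist1h2bk: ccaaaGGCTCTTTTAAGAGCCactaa
Hist1h3c: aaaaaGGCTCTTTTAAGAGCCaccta
Hist1h4c: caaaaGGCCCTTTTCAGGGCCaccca

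The sequence searched on the sense strand was the one in capitals in the Hist1h1c line, with up to 2 mismatches. It was found in annotated transcripts of 41 of the 67 genes, without a mismatch in 26, with 1 mismatch in 7 and with 2 in 8. Positions are counted from 1 at the 5′ end of these 16 bases. All 7 H4 genes with a match carried the same pair of changes, T4C and A13G, and no matched gene of another class carried either. That pair uses up the 2 mismatches allowed, so an H4 stem-loop with any further change could not be found. Positions 4 and 13 face each other in the stem. The loop change C10A stood in 1 H1, 2 H2B and 3 H3 genes. The annotated transcripts of 26 genes held no match, the most abundant gene Hist1h2bc and the third, Hist2h2be, among them. No match says only that these letters are not in the annotated transcript.

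All 12 libraries held little RNA from these genes. Libraries totalled 38866418 to 48615177 counts, and the 67 genes together reached 71.9 to 106.6 CPM in each (counts scaled to the library total). The median gene had 0.503 CPM over the 12 libraries, against 15.2 CPM for all 16794 genes tested, and 45 of the 67 stayed under 1 CPM. Another 18 lay between 1 and 5 CPM, and 4 lay above 5: Hist1h2bc at 18.9, Hist1h1c at 10.3, Hist2h2be at 6.43 and Hist1h3c at 6.35 CPM. These 4 held 46.5% of the summed level. Per length, Hist1h2bc at 16.4 CPM per kb was followed by Hist1h3c at 10.1, Hist1h1c at 6.59 and Hist1h2bg at 5.13 CPM per kb.

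Other RNAs place these levels. Of 11 genes for variant histones, which are made outside S phase as well and mostly have poly(A) tails, 1 was under 1 CPM. Some were far higher per length: H2afz (H2A.Z) had 507 CPM per kb, H3f3b 221 and H3f3a 117 CPM per kb (both H3.3). Of 11 RNAs that have no poly(A) tail, Rmrp and Rpph1 among them, 10 were under 1 CPM, and the 11 summed to 2.00 to 3.59 CPM per library. The labels do not say how RNA was selected for the libraries (poly(A) capture or rRNA removal), and its part in the low histone level was not tested. A single fragment was taken as about 4 deposited counts, or 0.0823 to 0.103 CPM, so that a gene at 0.5 CPM would rest on few fragments. That figure was set and not measured from reads. Smaller values occurred: Hist2h2bb had 1 deposited count over the sgNop16 libraries with CIT.

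**Figure D1:**
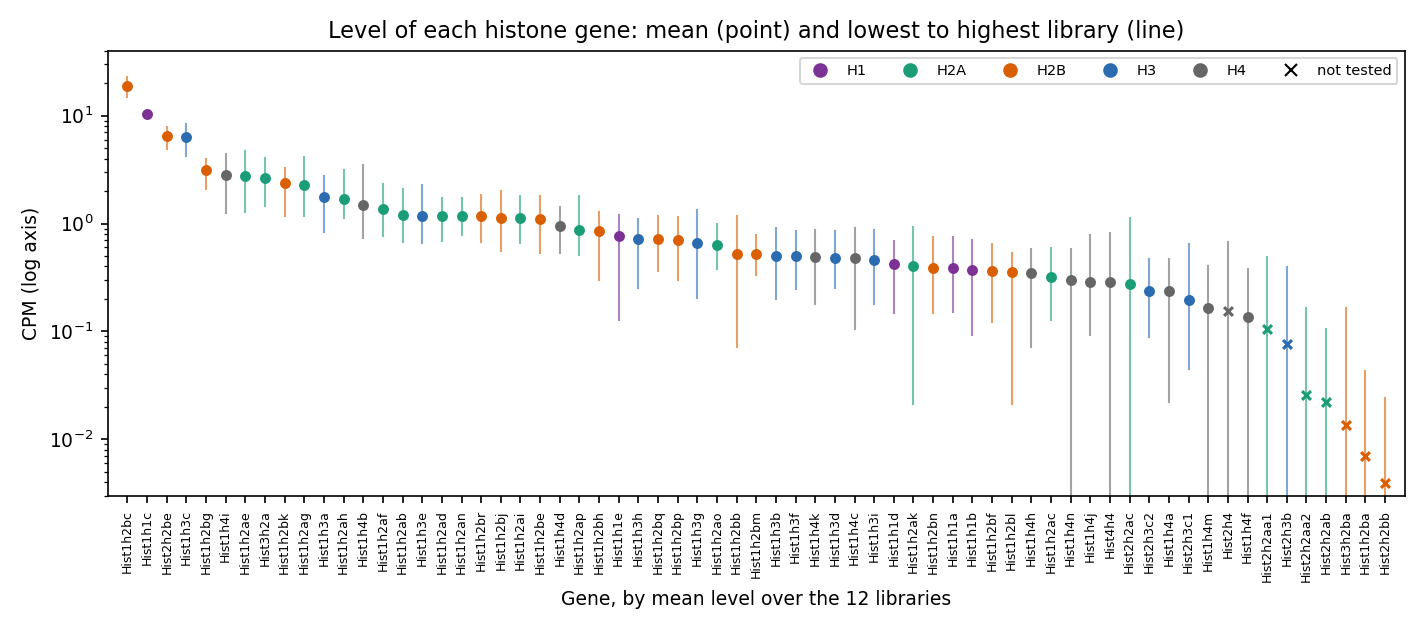
Each gene's mean CPM over the 12 libraries (point, log axis) and its lowest to highest library (line), coloured by class, with a cross for the genes too low to test. Hist1h2bc, Hist1h1c, Hist2h2be and Hist1h3c stand above 5 CPM, and 45 of the 67 genes lie under 1 CPM. The 2 genes with no counts are not drawn, and lines that reach the lower edge go down to 0.

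Of the 67 genes, 57 had enough counts to be tested: 5 H1, 14 H2A, 15 H2B, 11 H3 and 12 H4. The 10 others averaged at most 0.156 CPM. Among them, Hist1h1t and Hist1h2aa had no count in any library. That allows up to 0.309 CPM in the shallowest library (12 counts, taken as about 3 fragments, counting error only). Hist1h2ba had 0.00705 CPM. These 3 genes are known for expression in the testis. The other genes left untested were Hist2h4, Hist2h2aa1, Hist2h2aa2, Hist2h2ab, Hist2h2bb, Hist2h3b and Hist3h2ba. With the deposited counts divided by 4, only 30 of the 67 genes had enough counts to be tested.

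The genes resemble each other closely, which limits what one row of the table means. Over stretches of 75 bases, the median gene shared 42.4% of its annotated transcript with other genes. The share was over 50% in 31 genes and complete in 5, and 5 genes shared nothing. Hist2h2be shared 0% and Hist1h1c 6.66%, against 91.5% for Hist1h2ah, 77.6% for Hist1h2ag and 72.6% for Hist1h2bk. The division of reads that match several genes is not described in the labels, so values of genes with large shares are uncertain as single genes. Exons of 21 genes overlapped those of a gene on the other strand and 7 those of a gene on the same strand, by the GRCm38 annotation.

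Nop16 RNA was lower in sgNop16 cells. Nop16 had 65.1, 66.3 and 66.6 CPM in sgNop16 libraries with CIT, against 79.8, 73.6 and 80.3 in sgCtr libraries with CIT, and 85.6, 82.5 and 88.1 CPM in sgNop16 no stim libraries, against 102, 107 and 106 in sgCtr no stim libraries. The log2 difference, sgNop16 minus sgCtr, was −0.23 ± 0.045 (SE, adjusted p = 0.00204) with CIT and −0.31 ± 0.044 (adjusted p = 0.000109) without. The 7 genes that mark B cells summed to less with the Nop16 guide: to 3754 to 3826 CPM in sgNop16 libraries with CIT, against 4058 to 4147 CPM in sgCtr libraries with CIT, and to 3698 to 3733 CPM in sgNop16 no stim libraries, against 4022 to 4073 CPM in sgCtr no stim libraries. Of the 7, 4 were called lower in sgNop16 cells with CIT and 3 without, and none higher. Of all tested genes, the guide test called 7.12% in either direction with CIT and 4.06% without. The T cell, fibroblast and erythroid lists summed to at most 1.43, 0.926 and 2.39 CPM. The T cell sum was lower in CIT libraries (0.170 to 0.741 CPM) than in no stim libraries (0.980 to 1.43 CPM), with all 6 genes under 1 CPM. The 5 macrophage genes, mainly Mpeg1, which B cells also express, summed to 218 to 223 CPM with CIT, against 252 to 254.5 CPM without in sgNop16 cells, and to 265 to 284 CPM with CIT, against 220.3 to 226 CPM without in sgCtr cells. Of the 3 that could be tested, 1 was called higher and 1 lower with CIT in sgNop16 cells, and 3 higher in sgCtr cells. Of all tested genes, 19.3% were called higher and 18.5% lower with CIT in sgNop16 cells, and 20.6% higher and 21.1% lower in sgCtr cells. The part of these shifts in the histone differences was not tested.

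CIT went with a lower summed level of the histone cluster genes with both guides. In sgNop16 cells the 67 genes summed to 86.1, 81.6 and 80.4 CPM with CIT, against 107, 100.5 and 106 CPM without. In sgCtr cells the sums were 76.0, 71.9 and 77.1 CPM with CIT, against 95.9, 98.6 and 103 CPM without. The libraries with CIT lay below all those without, with either guide, and the ratio of the means was 0.794 in sgNop16 cells and 0.757 in sgCtr cells. Of single tested genes, 21.9% in sgNop16 cells and 22.4% in sgCtr cells had their CIT libraries wholly below, so such a separation is common here. Fewer cells in S phase and less histone RNA per cell cannot be told apart in bulk RNA. Without Hist1h2bc, Hist1h1c and Hist2h2be, which held 39.5% of the sum, the ratios were 0.746 in sgNop16 cells and 0.687 in sgCtr cells.

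The class sums had different ratios, which were not tested against each other. H1 summed to 12.4 ± 0.372 CPM with CIT and 12.1 ± 0.615 CPM without in sgNop16 cells, and to 12.1 ± 0.878 with CIT and 12.4 ± 0.805 CPM without in sgCtr cells (SD, n = 3 each). H2A had the lowest ratios, 0.663 in sgNop16 cells and 0.645 in sgCtr cells, with sums of 13.5, 17.2 and 14.5 CPM with CIT against 26.4, 19.6 and 22.1 without in sgNop16 cells, and of 14.5, 13.6 and 12.1 CPM with CIT against 20.4, 20.3 and 21.6 without in sgCtr cells. H2A libraries with CIT lay below those without in both. The H2B ratios were 0.766 in sgNop16 cells and 0.778 in sgCtr cells, and the H3 ratios 0.786 and 0.727. H4 differed between the guides in size: its ratio was 0.979 in sgNop16 cells and 0.674 in sgCtr cells, from 8.31 ± 0.972 CPM with CIT and 8.49 ± 0.762 without in sgNop16 cells, and 6.39 ± 0.651 with CIT and 9.49 ± 2.06 CPM without in sgCtr cells (SD, n = 3 each). No single H4 gene passed the test of that difference, and the sums themselves were not tested.

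**Figure D2:**
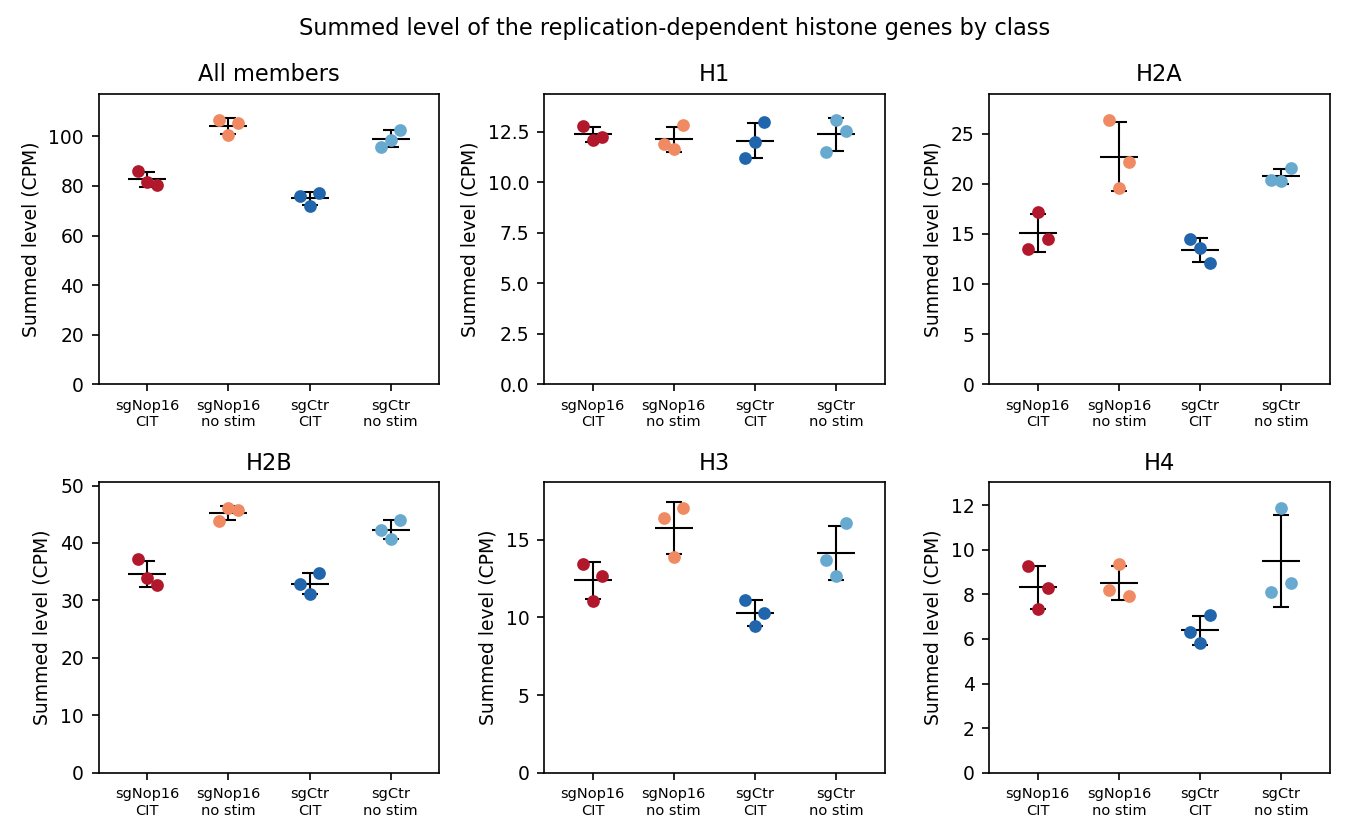
Summed CPM of all 67 genes and of each class in the 12 libraries (points), with the mean and SD of each group; axes start at 0. H1 lies between 11.2 and 13.1 CPM in every library, while the H2A and H2B sums are lower in all CIT libraries than in all no stim libraries.

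Gene by gene, 8 of the 57 genes were lower with CIT in sgNop16 cells and 9 in sgCtr cells, and none was higher, against 19.3% of all tested genes in sgNop16 cells and 20.6% in sgCtr cells (edgeR quasi-likelihood test, adjusted p under 0.05). The share called was 14% in sgNop16 cells, against 37.8% of all tested genes, of which 18.5% in the lower direction; in sgCtr cells it was 15.8%, against 41.7% of all tested genes, of which 21.1% lower. So the genes did not pass the test more often than genes at large. The median of the 67 genes was 0.503 CPM, against 15.2 CPM for all tested genes. The shares were not compared with genes of like level. Their estimates lay mostly below 0: 47 of 57 in sgNop16 cells, with a median log2 difference of −0.47 against 0.012 for all tested genes, and 43 of 57 in sgCtr cells, with a median of −0.51 against 0.018. CIT libraries lay wholly below no stim libraries for 16 genes in sgNop16 cells (28.1%, against 21.9% of all genes) and 17 in sgCtr cells (29.8%, against 22.4%), and wholly above for none, against 25.1% of all genes in sgNop16 cells and 27.9% in sgCtr cells. Of all tested genes, 48.7% had an estimate below 0 in sgNop16 cells and 48.3% in sgCtr cells. An estimate below 0 with both guides was found for 38 of the 57 genes, and one above 0 with both for 5. The like shares of all tested genes with both guides were not counted. Many of the 57 genes share long stretches, so their estimates are not separate observations. The 57 also include genes that were not tested once counts were divided by 4, which left 30.

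Most of these calls stood near the threshold. Leaving out 1 library left 1 to 5 genes called in sgNop16 cells, below 8 by over 1.5 times for each of its 6 libraries, and 3 to 7 in sgCtr cells, where the count fell to 3 without CIT replicate 2, to 4 without CIT replicate 3 and to 5 without no stim replicate 2. Of the 17 calls, 14 were lost without 1 library or another, and those of Hist1h2bc, Hist1h2ae and Hist1h3c in sgCtr cells were kept without each. None passed a test against a 1.5-fold minimum.

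H2A and H2B genes, 14 and 15 of the 57 tested, made up all 8 calls in sgNop16 cells and 5 of 9 in sgCtr cells. Called with both guides were Hist1h2ae, Hist1h2ag, Hist1h2ah and Hist1h2bc, 4 of the 8 and 4 of the 9. The share of all tested genes called with both guides was not counted. Hist1h2bc, an H2B gene and the most abundant member, had 18.8, 18.9 and 16.7 CPM with CIT against 20.7, 22.8 and 20.9 CPM without in sgNop16 cells, a log2 difference of −0.25 ± 0.097 (SE, adjusted p = 0.0485). In sgCtr cells it had 16.8, 15 and 15.2 CPM with CIT against 21.3, 17.9 and 22.2 CPM without, a log2 difference of −0.42 ± 0.098 (adjusted p = 0.00122). All CIT libraries were below all no stim libraries with either guide. In sgNop16 cells the call was lost without any one of the 6 libraries; in sgCtr cells it held without each.

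Hist1h2ae, an H2A gene, showed a larger difference at a lower level. It had 1.44, 2.55 and 2.34 CPM with CIT against 2.80, 3.45 and 4.48 without in sgNop16 cells, and 2.25, 1.27 and 1.51 CPM with CIT against 3.28, 2.78 and 4.71 without in sgCtr cells. The groups did not overlap with either guide. The log2 differences were −0.77 ± 0.28 (SE, adjusted p = 0.0371) in sgNop16 cells and −1.13 ± 0.29 (adjusted p = 0.00244) in sgCtr cells. Its neighbour Hist1h2bg, an H2B gene read from the other side of the same promoter, had 2.83, 3.0 and 2.92 CPM with CIT against 3.53, 3.97 and 3.99 without in sgNop16 cells and 2.59, 3.12 and 2.11 CPM with CIT against 2.52, 3.99 and 3.43 without in sgCtr cells. Its estimates of −0.40 (adjusted p = 0.167) in sgNop16 cells and −0.38 (adjusted p = 0.183) in sgCtr cells did not pass.

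Hist1h2ag and Hist1h2ah, both H2A genes with large shared stretches, had similar estimates. Hist1h2ag had 1.44, 1.77 and 2.26 CPM with CIT against 4.11, 2.58 and 2.85 without in sgNop16 cells, and 1.94, 1.34 and 1.18 CPM with CIT against 2.52, 2.72 and 2.48 without in sgCtr cells. Hist1h2ah had 1.13, 1.32 and 1.29 CPM with CIT against 3.17, 1.6 and 2.01 without in sgNop16 cells, and 1.16, 1.27 and 1.13 CPM with CIT against 1.71, 2.09 and 2.23 without in sgCtr cells. The CIT libraries of both genes were all below the no stim libraries. The log2 differences of Hist1h2ag were −0.81 ± 0.27 (SE, adjusted p = 0.0213) in sgNop16 cells and −0.83 ± 0.27 (adjusted p = 0.0183) in sgCtr cells. Those of Hist1h2ah were −0.87 ± 0.30 (adjusted p = 0.0242) and −0.79 ± 0.30 (adjusted p = 0.0363).

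Genes called in sgNop16 cells alone were Hist1h2ad, Hist1h2bk, Hist1h2br and Hist1h2bq. Hist1h2ad had 0.695, 0.926 and 0.755 CPM with CIT against 1.73, 1.67 and 1.33 without in sgNop16 cells (log2 difference −1.0 ± 0.33 SE, adjusted p = 0.0183) and 1.04, 0.956 and 0.956 CPM with CIT against 1.46, 1.51 and 1.1 without in sgCtr cells. Hist1h2bk had 2.52, 1.81 and 1.17 CPM with CIT against 3.27, 3.28 and 2.71 without in sgNop16 cells (log2 difference −0.76 ± 0.28 SE, adjusted p = 0.0345) and 1.67, 1.47 and 2.31 CPM with CIT against 3.12, 2.56 and 2.40 without in sgCtr cells. Both also had CIT libraries wholly below no stim libraries in sgCtr cells, where their estimates were −0.50 (adjusted p = 0.245) and −0.60 (adjusted p = 0.0911). Hist1h2br and Hist1h2bq, at 1.17 and 0.719 CPM on average, had log2 differences of −0.93 (adjusted p = 0.0378) and −1.19 (adjusted p = 0.0440) in sgNop16 cells. A call with one guide alone is not a difference between the guides; the tests of that difference stand further on.

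Genes called in sgCtr cells alone were 2 H3, 2 H4 and 1 H2A gene. Hist1h3c, the most abundant H3 gene, had 7.20, 6.07 and 6.40 CPM with CIT against 7.19, 6.51 and 8.40 without in sgNop16 cells, and 4.51, 4.27 and 4.96 CPM with CIT against 7.84, 5.14 and 7.76 without in sgCtr cells. Its groups overlapped in sgNop16 cells (log2 difference −0.18 ± 0.17 SE, adjusted p = 0.463) and were apart in sgCtr cells (−0.63 ± 0.17, adjusted p = 0.00420). Hist1h4i, the most abundant H4 gene, had 3.16, 2.63 and 3.02 CPM with CIT against 2.25, 4.4 and 3.08 without in sgNop16 cells, and 2.66, 1.25 and 1.93 CPM with CIT against 3.30, 3.59 and 2.88 without in sgCtr cells. Its log2 differences were −0.15 ± 0.27 (adjusted p = 0.729) in sgNop16 cells, with overlap, and −0.78 ± 0.27 (adjusted p = 0.0258) in sgCtr cells, without.

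The other 3, Hist1h3g, Hist1h4c and Hist1h2ab, were called in sgCtr cells just under the threshold, with adjusted p of 0.0448, 0.0496 and 0.0498 and log2 differences of −1.52, −1.77 and −0.89. Hist1h4c had 0.347, 0.106 and 0.111 CPM with CIT against 0.806, 0.913 and 0.170 without in sgCtr cells, with overlap, from 25 deposited counts over 3 libraries with CIT and 81 without. Hist1h3g had 0.324, 0.212 and 0.356 CPM with CIT against 0.680, 0.646 and 1.19 without in sgCtr cells, without overlap.

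**Figure D3:**
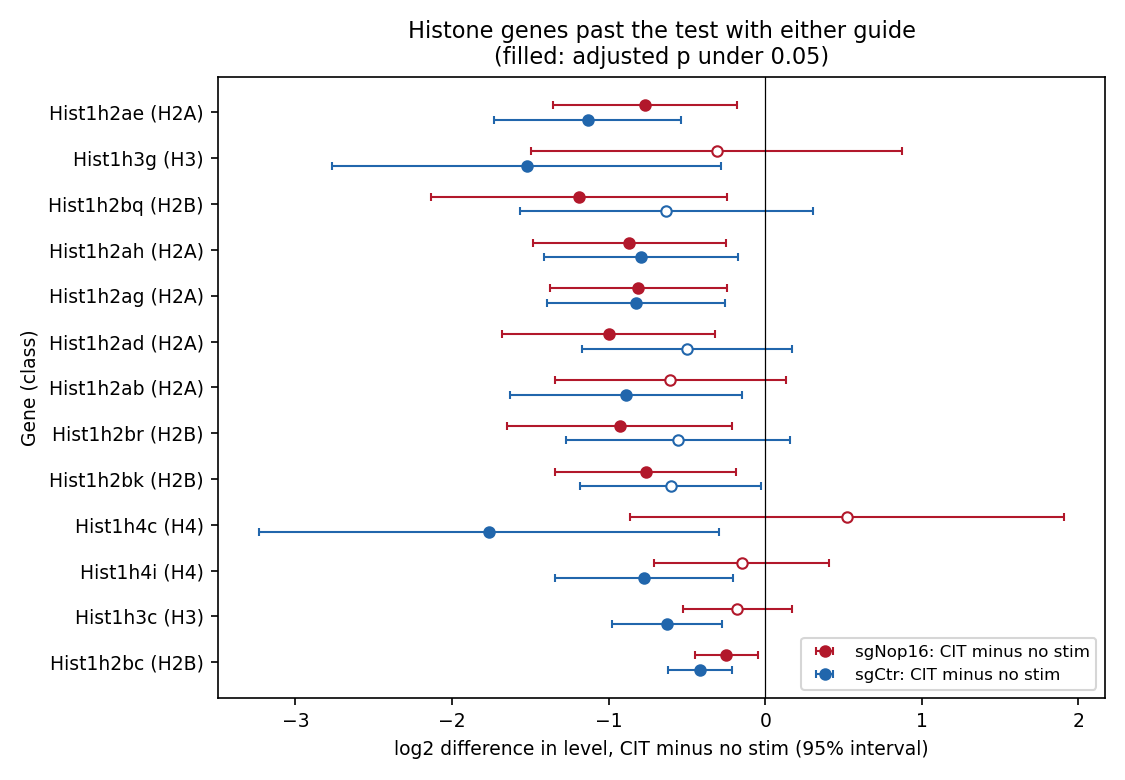
Log2 difference, CIT minus no stim, with its 95% interval for the 13 genes past the test with either guide, in sgNop16 cells (red) and sgCtr cells (blue). Filled points passed the test; estimates of 12 genes lie below 0 with both guides, and Hist1h4c lies below 0 in sgCtr cells and above 0 in sgNop16 cells.

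Several abundant members did not pass. Hist1h1c, the H1 gene with the most RNA, had 10.1, 10.1 and 10.2 CPM with CIT against 9.63, 9.52 and 11.1 without in sgNop16 cells, and 9.93, 10.7 and 10.6 CPM with CIT against 10.3, 11 and 10.1 without in sgCtr cells. The groups overlapped, and the 95% interval of the log2 difference was −0.24 to 0.23 in sgNop16 cells and −0.27 to 0.19 in sgCtr cells. Hist2h2be, an H2B gene of the Hist2 cluster, had 5.63, 4.90 and 6.74 CPM with CIT against 7.89, 6.68 and 7.75 without in sgNop16 cells, and 5.23, 6.78 and 7.04 CPM with CIT against 6.30, 6.86 and 5.32 without in sgCtr cells. Its intervals were −0.72 to −0.042 (adjusted p = 0.0737) in sgNop16 cells and −0.33 to 0.35 (adjusted p = 0.969) in sgCtr cells.

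Among the less abundant genes named for their class, Hist3h2a (H2A) had 2.34, 3.11 and 1.83 CPM with CIT against 3.10, 2.66 and 4.08 without in sgNop16 cells, and 1.46, 2.34 and 2.04 with CIT against 2.09, 2.78 and 3.6 without in sgCtr cells. Hist1h3a (H3) had 1.93, 0.843 and 1.66 CPM with CIT against 1.95, 2.39 and 2.01 without in sgNop16 cells, and 1.57, 1.30 and 1.82 with CIT against 0.957, 2.07 and 2.76 without in sgCtr cells. Only the sgNop16 libraries of Hist1h3a were apart; the other groups of both genes overlapped. Hist1h4b (H4) had 1.13, 1.09 and 1.80 CPM with CIT against 1.75, 1.24 and 1.05 without in sgNop16 cells, and 0.741, 1.27 and 1.36 with CIT against 1.51, 3.47 and 1.38 without in sgCtr cells. Hist1h1e (H1) had 1.21, 1.09 and 0.730 CPM with CIT against 0.984, 0.455 and 0.653 without in sgNop16 cells, and 0.671, 0.127 and 0.622 with CIT against 0.428, 1.16 and 1.04 without in sgCtr cells. None of the 4 passed the test of CIT with either guide, the nearest being Hist1h4b in sgCtr cells (adjusted p = 0.0505), which DESeq2 called (adjusted p = 0.0411).

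None of the 57 genes passed the test of the Nop16 guide, with or without CIT. With CIT, 0 genes were called, against 7.12% of all tested genes, and 4 had an unadjusted p under 0.05, against 18.5% of all tested genes, all higher in sgNop16 cells: Hist1h3c, Hist1h4c, Hist1h2bc and Hist1h4i. Without CIT, 0 genes were called, against 4.06% of all tested genes, and 0 had an unadjusted p under 0.05, against 14.7%. These shares too were not compared with genes of like level. The median log2 difference, sgNop16 minus sgCtr, was 0.078 with CIT and 0.11 without, against 0.0082 and 0.00025 for all tested genes. The summed level was 1.1 times that of sgCtr cells with CIT and 1.05 times without.

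Hist1h3c came nearest with CIT. Its 3 sgNop16 libraries (7.20, 6.07 and 6.40 CPM) were all above the 3 sgCtr libraries (4.51, 4.27 and 4.96 CPM), with a log2 difference of 0.53 ± 0.17 (SE, adjusted p = 0.0662). DESeq2 called it (adjusted p = 0.0211), as the only one of the 26 members that it gave an adjusted p. Without CIT it called none of 31 such members. Hist1h3c with CIT was also called with a block for replicate number and with a filter of at least 5 CPM in 3 libraries. Hist1h4c with CIT had 0.772, 0.514 and 0.682 CPM in sgNop16 libraries, against 0.347, 0.106 and 0.111 CPM in sgCtr libraries, without overlap (1.80 ± 0.71, adjusted p = 0.15). Both genes share these sgCtr libraries with the CIT comparison in sgCtr cells, so the results are not independent.

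The test of whether CIT acted differently with the 2 guides (the interaction) called 0 of the 57 genes, against 2.83% of all tested genes. DESeq2 gave only 22 members an adjusted p for the interaction, and called 0 of them. At an unadjusted p under 0.05, against 13.3% of all tested genes, stood 1 gene, Hist1h4c, whose interaction was 2.29 ± 0.97 on the log2 scale (SE, adjusted p = 0.278). For Hist1h3c the interaction was 0.45 with a 95% interval of −0.045 to 0.94, and for Hist1h4i 0.63 with an interval of −0.17 to 1.42. Both intervals include 0 and reach well above it.

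Companion lists are read against all tested genes, of which 19.3% rose and 18.5% fell with CIT in sgNop16 cells, and 20.6% rose and 21.1% fell in sgCtr cells, with medians of 0.012 and 0.018. Of 16 genes of histone 3′ end processing, 8 fell with CIT in sgNop16 cells and 12 in sgCtr cells, and none rose (medians −0.11 in sgNop16 cells and −0.21 in sgCtr cells). Cstf2, a cleavage factor subunit, fell by 0.34 in sgNop16 cells (adjusted p = 6.02e-08) and by 0.49 in sgCtr cells (adjusted p = 9.99e-11) on the log2 scale. Snrpf, a ring protein of the snRNPs, fell by 0.19 (adjusted p = 0.00109) in sgNop16 cells and by 0.40 (adjusted p = 9.01e-08) in sgCtr cells. Slbp itself had 128, 122 and 129 CPM with CIT against 120.3, 114 and 124 without in sgNop16 cells, and 137, 135 and 134 CPM with CIT against 127, 129 and 139.9 without in sgCtr cells. It was not called for CIT with either guide (log2 differences 0.067, adjusted p = 0.227, and 0.0013, adjusted p = 0.985). Without CIT, 2 of the 16 genes were lower in sgNop16 than in sgCtr cells, Slbp and Srrt. Of all tested genes, 4.06% were called in either direction in that comparison. Slbp had a log2 difference of −0.16 ± 0.041 (SE, adjusted p = 0.0268). Srrt, a partner of the cap-binding complex, had −0.14 ± 0.030 (adjusted p = 0.00511). The Slbp call was lost without any 1 of 3 libraries (sgNop16 no stim replicate 1 or 2, or sgCtr no stim replicate 3), with adjusted p up to 0.179.

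Of 15 genes that drive histone gene transcription, 3 rose and 5 fell with CIT with each guide (medians −0.026 in sgNop16 cells and −0.034 in sgCtr cells). For all tested genes the shares were 19.3% rising and 18.5% falling in sgNop16 cells, and 20.6% and 21.1% in sgCtr cells, so the share that rose was near that of all genes. Ccne1, which encodes cyclin E, fell by 0.86 in sgNop16 cells and by 0.91 in sgCtr cells (adjusted p = 1.18e-09 and 3.79e-10). Ccne2, the other cyclin E gene, rose by 0.24 in sgNop16 cells (adjusted p = 0.0104), a call lost without sgNop16 no stim replicate 2 or 3 (adjusted p up to 0.0988), and had a difference of 0.025 in sgCtr cells (adjusted p = 0.837). Pou2f1, whose protein OCT1 binds the octamer in H2B promoters, fell by 0.58 in sgNop16 cells and by 0.47 in sgCtr cells (adjusted p = 1.94e-10 and 5.22e-09). Hinfp, the factor of H4 promoters, rose by 0.20 in sgNop16 cells and 0.18 in sgCtr cells (adjusted p = 0.0222 and 0.0389), and Npat rose by 0.13 in sgCtr cells (adjusted p = 0.0471). Each of these 3 calls of Hinfp and Npat was lost without any 1 of 4 of its 6 libraries, with adjusted p up to 0.133 for Hinfp in sgNop16 cells, 0.173 for Hinfp in sgCtr cells and 0.234 for Npat. No gene of this list passed the test of the guide.

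Of 12 genes of histone mRNA decay, 3 rose and 1 fell with CIT in sgNop16 cells, and 6 rose and 5 fell in sgCtr cells, with medians of 0.066 in sgNop16 cells and 0.19 in sgCtr cells, against the 19.3% rising and 18.5% falling of all genes in sgNop16 cells and the 20.6% and 21.1% in sgCtr cells. Dcp2, the decapping enzyme, rose by 0.46 in sgNop16 cells and 0.41 in sgCtr cells (adjusted p = 1.09e-08 and 5.10e-08). Tut7, which adds uridines to histone mRNAs, rose by 0.24 in sgNop16 cells and 0.41 in sgCtr cells (adjusted p = 0.00142 and 2.35e-06). Upf1, which takes part in their degradation, fell by 0.12 in sgNop16 cells and by 0.24 in sgCtr cells (adjusted p = 0.00726 and 2.11e-06). With CIT, Tut4 and Smg1 were lower in sgNop16 than in sgCtr cells, by 0.21 and 0.14 (adjusted p = 0.000401 and 0.00821); without sgNop16 CIT replicate 2, Smg1 had an adjusted p of 0.0518.

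Among 15 histone chaperones, 3 rose and 6 fell with CIT in sgNop16 cells, and 4 rose and 6 fell in sgCtr cells (medians −0.12 in sgNop16 cells and −0.14 in sgCtr cells). Of all tested genes, 19.3% rose and 18.5% fell in sgNop16 cells, and 20.6% rose and 21.1% fell in sgCtr cells. Hjurp, the chaperone of CENP-A, rose by 0.42 in sgNop16 cells and 0.41 in sgCtr cells (adjusted p = 1.53e-07 and 1.47e-07), and Nap1l1, a carrier of H2A and H2B, fell by 0.22 and 0.23 (adjusted p = 2.50e-08 and 8.17e-09). Of 11 genes for variant histones, 2 rose and 5 fell in sgNop16 cells, and 1 rose and 4 fell in sgCtr cells (medians −0.071 in sgNop16 cells and −0.063 in sgCtr cells). H2afv rose by 0.45 in sgNop16 cells and 0.48 in sgCtr cells (adjusted p = 1.89e-05 and 5.92e-06). H1fx, a linker histone gene outside the clusters, fell by 0.93 in sgNop16 cells and by 1.03 in sgCtr cells (adjusted p = 0.000163 and 3.93e-05). H2afz fell by 0.18 in sgCtr cells (adjusted p = 7.25e-07) and by 0.11 in sgNop16 cells (adjusted p = 0.000677) and, with CIT, was higher by 0.077 in sgNop16 than in sgCtr cells (adjusted p = 0.0461), a call lost without any 1 of 5 of the 6 libraries compared (sgNop16 CIT replicate 2 excepted).

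Of 30 S phase genes, Slbp included, 16 fell, 4 rose and 10 passed in neither direction with CIT in sgNop16 cells, and 18 fell, none rose and 12 passed in neither direction in sgCtr cells. Of the 4 that rose, Tyms, Fen1 and Cdc45 lost the call without any 1 of 5, 3 and 3 of the 6 libraries compared. The interaction called 0 of the 30 genes. Of all tested genes, 18.5% fell in sgNop16 cells and 21.1% in sgCtr cells. The medians of the list were −0.13 in sgNop16 cells and −0.16 in sgCtr cells. Cdt1, a licensing factor of replication, fell by 0.55 in sgNop16 cells and by 0.60 in sgCtr cells (adjusted p = 6.09e-09 and 1.35e-09), and Mcm2, a subunit of the replicative helicase, fell by 0.35 and 0.39 (adjusted p = 2.61e-10 and 3.78e-11). The list summed to 5208 to 5243 CPM with CIT, against 5669 to 5732 CPM without in sgNop16 cells, and to 5310 to 5418 CPM with CIT, against 5876 to 5965 CPM without in sgCtr cells. Of 20 mitosis genes, 6 fell and 5 rose in sgNop16 cells, and 8 fell and 3 rose in sgCtr cells, against 18.5% falling and 19.3% rising of all genes in sgNop16 cells and 21.1% and 20.6% in sgCtr cells (medians −0.0017 and −0.037), with Plk1 falling by 0.29 and 0.36 (adjusted p = 4.95e-07 and 1.09e-08). The part of a shift in the cell cycle in the histone differences was not tested. Without CIT, 7 S phase and 3 mitosis genes were lower in sgNop16 than in sgCtr cells, Mcm7 by 0.16 (adjusted p = 0.00108) among them. The mitosis calls of Aurkb, Nusap1 and Top2a were lost without any 1 of 5, 5 and 4 of the 6 libraries compared. The S phase calls of Tyms and Slbp were each lost without any 1 of 3 libraries, and that of Mcm7 was kept without each. Of all 16794 tested genes, 322 were lower and 4.06% were called in either direction.

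**Figure D4:**
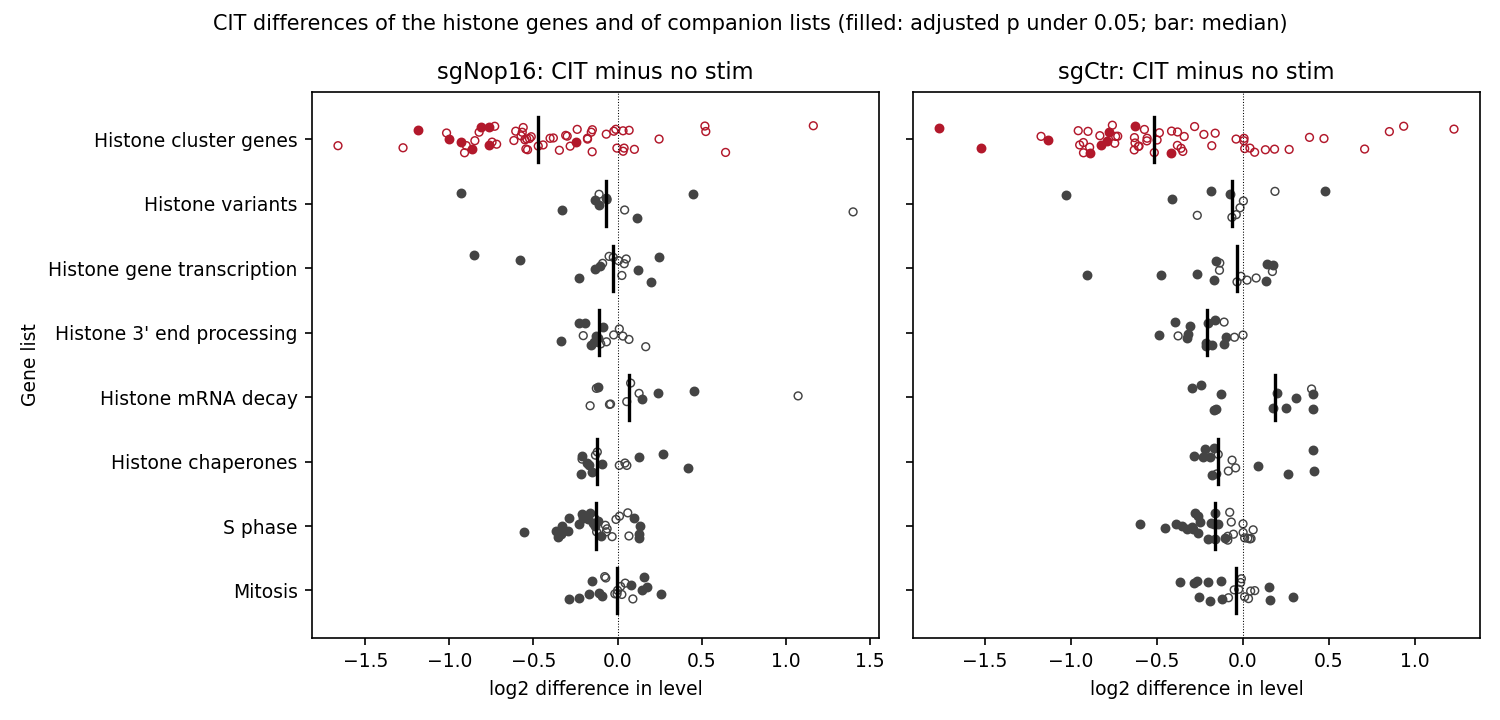
Log2 difference, CIT minus no stim, of the 57 tested histone cluster genes (top row, red) and of the companion lists (grey) in sgNop16 cells (left) and sgCtr cells (right); filled points passed the test and bars are medians. The lists drawn are histone variants, histone gene transcription, 3′ end processing, mRNA decay, chaperones, S phase and mitosis, and not the cell type markers. Medians of the histone cluster genes are −0.47 and −0.51, below those of these 7 lists, and most of their points are open.

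Promoters are shown because the classes differ in their motifs and Hist1h2ae and Hist1h2bg share theirs. The lines give the 250 bases before the annotated start, 5′ to 3′ on the gene's strand (RefSeq, GRCm38.p6). Capitals mark, on either strand, 4 motifs: the CCAAT box, the TATAAA box, the octamer that OCT1 binds (ATTTGCAT) and a motif known from H1 promoters (AAACACA). They stand at chr13:23738557-23738806 on the + strand (Hist1h1c), chr13:23571150-23571399 on the + strand (Hist1h2bg), chr13:23745522-23745771 on the − strand (Hist1h3c) and chr13:23698459-23698708 on the − strand (Hist1h4c).
Hist1h1c: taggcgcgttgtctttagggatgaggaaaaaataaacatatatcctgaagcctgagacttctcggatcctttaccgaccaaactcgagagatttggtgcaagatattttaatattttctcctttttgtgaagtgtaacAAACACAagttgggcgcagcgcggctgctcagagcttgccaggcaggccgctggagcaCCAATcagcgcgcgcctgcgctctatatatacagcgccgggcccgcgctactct
Hist1h2bg: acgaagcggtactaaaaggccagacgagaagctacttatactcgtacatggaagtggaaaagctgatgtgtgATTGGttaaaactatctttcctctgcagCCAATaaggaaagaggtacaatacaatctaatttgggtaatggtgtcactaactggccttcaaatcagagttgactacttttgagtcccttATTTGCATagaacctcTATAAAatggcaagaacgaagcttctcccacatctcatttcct
Hist1h3c: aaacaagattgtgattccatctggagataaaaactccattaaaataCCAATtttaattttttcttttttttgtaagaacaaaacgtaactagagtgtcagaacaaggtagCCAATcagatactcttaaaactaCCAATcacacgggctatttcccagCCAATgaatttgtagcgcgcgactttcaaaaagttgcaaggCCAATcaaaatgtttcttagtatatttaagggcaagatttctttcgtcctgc
Hist1h4c: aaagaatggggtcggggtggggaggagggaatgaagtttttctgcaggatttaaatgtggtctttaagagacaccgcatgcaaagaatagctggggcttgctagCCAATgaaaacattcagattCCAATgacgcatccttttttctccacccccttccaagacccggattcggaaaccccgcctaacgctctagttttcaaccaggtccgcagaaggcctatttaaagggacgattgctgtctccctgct

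The RefSeq table held 62 promoters of 61 of the 67 genes, from 250 bases before to 50 after the start, which were compared with all 32851 promoters of that table. CCAAT, in either strand as for each motif here, was in 53 of the 62, against 37.4% of all promoters, and in all promoters of H1, H2A, H2B and H3 but in 3 of 12 of H4. TATAAA was in 35 of the 62, against 13.6%. The octamer ATTTGCAT was in 14, against 1.74% of all promoters: 7 of H2A, 7 of H2B and none of H1, H3 or H4. Many H2A and H2B genes lie head to head, so one octamer, CCAAT or TATAAA can count for both. Matches were counted at any position in the window. In Hist1h2bf, for example, TATAAA stood at −209 on the other strand. AAACACA was in 5 of 6 H1 promoters and 9 of the 62, against 7.18% of all. These matches describe the letters of the windows and say nothing on binding in these cells. No promoter was found for Hist1h2bc in that table.

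Levels were also set beside the shape of the annotated transcript. Transcripts of 22 genes ended within 100 bases after the stem-loop, those of 19 went on for more, and 26 held no match. The 22 genes held 24.8% of the summed level, the 19 held 29.5% and the 26 held 45.7%. The median level per length was 1.01 CPM per kb in the 22, 0.395 in the 19 and 0.981 in the 26. Not divided by length, the medians were 0.576 CPM in the 22, 0.498 in the 19 and 0.432 in the 26. The bases after the stem-loop that define the 19 add to their annotated length, which by itself lowers their level per length. Hist1h3c, Hist1h2bk and Hist1h2ag were in the first group, Hist1h1c, Hist1h2ae and Hist1h4c in the second, and Hist1h2bc, Hist2h2be and Hist1h4i in the third.

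**Figure D5:**
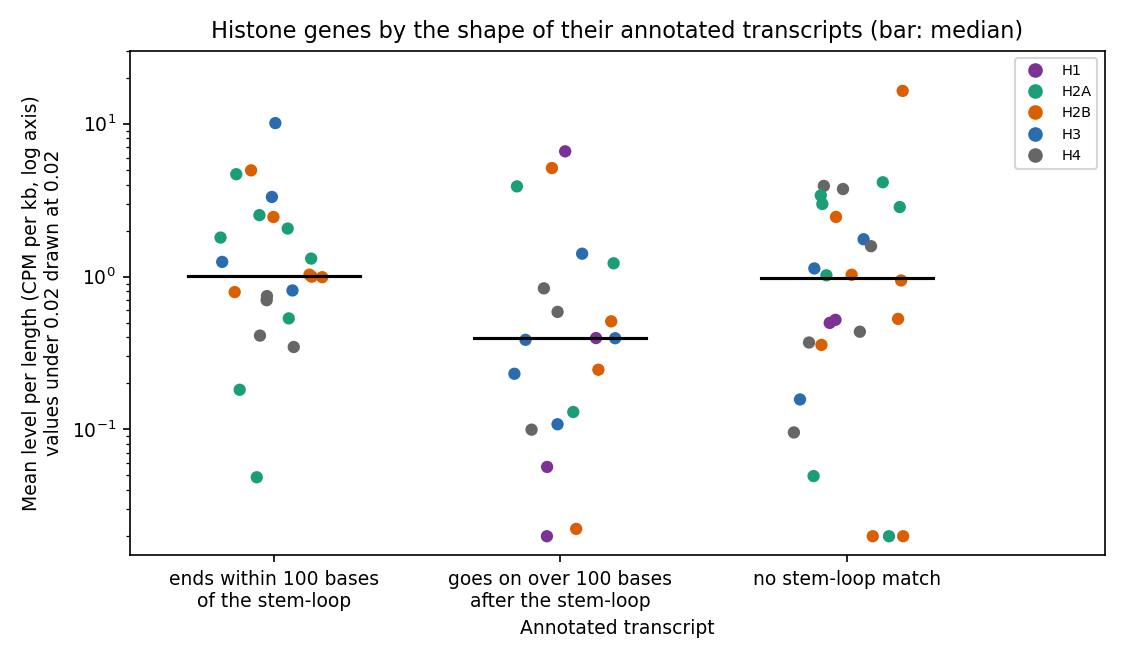
Mean CPM per kb of each of the 67 genes (log axis, coloured by class) by the shape of its annotated transcript, with the median of each shape as a bar; values under 0.02 are drawn at 0.02. The medians are 1.01, 0.395 and 0.981 CPM per kb, and each shape spans a wide range of levels. Bases after the stem-loop add to the length by which the level is divided.

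Over the 12 libraries, the genes outside the list whose log2 CPM followed the log2 summed CPM of the 67 genes most closely were Slc7a7, an amino acid transporter (Pearson r = 0.983), Tnf, a cytokine (0.980), Hax1 (0.980), Imp4, a factor of ribosome assembly (0.980), and Eif2s1, a translation initiation factor (0.978), among 10224 genes of at least 5 CPM. Tnf averaged 13.8 CPM in sgNop16 cells with CIT, against 30.9 CPM without, and 11.5 CPM in sgCtr cells with CIT, against 26 CPM without. The points share the 4 groups and the CIT difference, so the values describe these libraries.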

How the data were processed

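RNA-seq of 12 libraries (4 groups of 3) was analysed, made from 1 µg of total RNA with a strand-specific kit, per the labels' protocols. The authors deposited estimated counts per gene as whole numbers; HISAT2 2.2.1, StringTie 2.2.1 and GRCm39 are named in the submitters' processing notes. One sequenced fragment was taken as about 4 counts, a figure not measured from reads. All 12 libraries were fitted together with edgeR 4.0.16 in R 4.3.3 (limma 3.58.1): filterByExpr, TMM scaling (factors 0.985 to 1.01), a mean per group, the robust quasi-likelihood test, and Benjamini-Hochberg adjustment over 16794 genes at 0.05. The tests were CIT within each guide, the guide within each condition, and the interaction. DESeq2 1.42.0, other scalings and filters, and leaving out each library were alternatives. CPM divided counts by the library totals, without the TMM factors. CPM per kb used the annotated length. The fit was tested on simulated counts.

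Values in every library are given for the 2 highest genes of each class and for up to 5 called genes per direction and contrast with the smallest adjusted p; of each companion list, up to 3 called genes per direction with the largest change were eligible. The members and lists were chosen with earlier results of these data known; Hist1h2bg, H2afz in sgNop16 cells, Slbp for CIT, the motifs and the limit of 100 bases after the stem-loop were chosen after values were seen. Sequences came from GENCODE and RefSeq on GRCm38, another build than the files', so no coordinates of the files are given. Replicates of a group differed by more than sampling noise. Same-numbered libraries did not deviate together (correlations of −0.045 to 0.023 over 18 pairs), so they were not paired.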

Additional observations from a re-analysis of the deposited data

How the results depend on the processing

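Leaving out each library in turn gave 1 to 5 genes called for CIT in sgNop16 cells, 3 to 7 for CIT in sgCtr cells, and 0 to 0 for the guide and the interaction. Without a filter on low counts, 5 genes were called with each guide. With at least 5 CPM in 3 libraries, 4 genes could be tested, of which 1 was called for CIT in sgNop16 cells, 2 in sgCtr cells and 1 for the guide with CIT. Against a 1.5-fold minimum 0 were called for CIT with either guide. DESeq2 called 1 of the 26 members with an adjusted p for the guide with CIT. The replicate block, which the check of pairing did not back, also called 1. These calls and that with the 5 CPM filter were all of Hist1h3c. The block gave 6 for CIT in sgNop16 cells and 7 in sgCtr cells. The other settings (RLE, library totals, only the groups compared, counts divided by 4, and no robust dispersion, added after seeing the data) gave 6 to 9 for CIT. Counts divided by 4 left 30 members with a test. Over all genes, DESeq2 called 1216 for the guide without CIT, 1959 with CIT and 1044 for the interaction, against 682, 1195 and 475; the 1.5-fold minimum left 3, 5 and 1 of these, and 1220 for CIT in sgNop16 cells and 1348 in sgCtr cells, against 6343 and 7007. Leaving out 1 library took the guide with CIT down to 777 and the interaction down to 305. Of 121 named gene results, 116 kept their direction throughout, and none of 100 called ones turned. The 5 that turned were uncalled: Hist1h1c for CIT in sgNop16 cells (0.0062 with library totals, 0.0065 with the 5 CPM filter, −0.060 to 0.061 without 1 library), Hist1h4b (−0.30 to 0.20) and Hist1h4i (−0.37 to 0.11) in sgNop16 cells, and Hist1h3a (−0.66 to 0.0055) and Hist2h2be (−0.088 to 0.13) in sgCtr cells without 1 library. The cause was not tested. Most members lie under 1 CPM, which limits single-gene calls.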
